A study of Mus musculus with 6 samples.

Results

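The 9 genes described here encode the oxygen-sensing core of mammalian cells: the hypoxia-inducible factor (HIF) α subunits Hif1a, Epas1 and Hif3a, their β partner Arnt, the prolyl hydroxylases Egln1, Egln2 and Egln3, the asparaginyl hydroxylase Hif1an, and Vhl. They were found by symbol among the transcript clusters that a platform annotation gives 1 gene, and all 9 of the 9 were measured, out of 19933 genes named in that way. Each had 1 transcript cluster, so no choice between clusters was needed. RNA came from embryonic mouse hearts of stage E12.5, when the chambers are growing. Hearts labelled as knockout for β1 integrin (heart_KO) were set against wild-type hearts (heart_WT). There were 3 samples per group, each read on its own Affymetrix Mouse Gene 1.0 ST array. The labels name no strain, no Cre driver and no deleted cell type, nor whether hearts were pooled. A sample is called a heart from here on, and replicates are numbered as in the labels.

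In oxygenated cells the EGLN enzymes hydroxylate prolines of the HIF α subunits, and the VHL protein, part of a ubiquitin ligase, binds the hydroxylated form and marks it for degradation. When oxygen is short, hydroxylation slows, and the α subunit persists, pairs with ARNT and activates genes of glycolysis, glucose uptake, red cell supply and vessel growth. Hif1an, also called FIH, hydroxylates an asparagine that blocks coactivator binding. Egln1 and Egln3 are themselves classical HIF target genes, whereas Egln2 is not, so transcript levels of the sensors also carry a reading of the pathway's output. HIF control of the α subunits acts mainly on protein, which an expression array does not measure.

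Values are log2 RMA signals as the authors deposited them, and differences are heart_KO minus heart_WT on that scale, with the standard error (SE) of limma. Itgb1, the targeted gene, measured 11.53, 11.42 and 11.65 in heart_KO replicates 1 to 3, against 11.76, 11.80 and 11.78 in heart_WT replicates 1 to 3. The groups did not overlap, and the difference was -0.25 ± 0.09 (SE), which is 84.0% of wild type. Whether the probes lie in the deleted part is not given, so this is no check of the labels. Cardiomyocyte markers averaged 12.401 to 12.519 in heart_KO and 12.503 to 12.539 in heart_WT. Of these 13 genes 10 had lower and 3 higher means in the knockout, with a median difference of -0.07 (log2). The counts were the same without heart_KO replicate 1, with a median of -0.03. Heart_KO replicate 1 stands apart: it was the highest or lowest of the 6 hearts for 52.2% of named genes. The difference without it is given for each of the 9 genes, and for other genes and lists where it moves the value most.

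The upstream sequences of the genes hold the letters that HIF recognises to differing extents, and those of the prolyl hydroxylases and of Hif3a are shown because these genes differed most between the 6 hearts. The sequences are RefSeq windows of mouse build GRCm38.p6, from 250 bases before to 50 bases after an annotated start, written on the gene's strand. Capitals mark the HIF core, searched as ACGTG and GCGTG on both strands, where a match on the other strand reads CACGT or CACGC.
Egln3, chr12:54203825-54204124, minus strand: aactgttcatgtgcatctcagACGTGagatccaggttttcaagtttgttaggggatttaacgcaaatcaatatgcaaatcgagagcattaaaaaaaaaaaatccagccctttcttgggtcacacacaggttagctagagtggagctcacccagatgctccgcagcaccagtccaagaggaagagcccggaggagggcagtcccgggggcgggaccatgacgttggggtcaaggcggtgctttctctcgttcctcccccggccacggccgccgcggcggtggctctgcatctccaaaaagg
Egln1, chr8:124949205-124949504, minus strand: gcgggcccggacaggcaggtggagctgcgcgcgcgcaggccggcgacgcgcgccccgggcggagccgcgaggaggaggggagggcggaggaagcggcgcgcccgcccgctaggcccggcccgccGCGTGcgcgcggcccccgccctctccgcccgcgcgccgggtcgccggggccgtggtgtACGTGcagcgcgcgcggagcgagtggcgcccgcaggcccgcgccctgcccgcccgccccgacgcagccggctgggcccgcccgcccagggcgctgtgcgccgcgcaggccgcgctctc
Egln2, chr7:27166753-27167052, minus strand: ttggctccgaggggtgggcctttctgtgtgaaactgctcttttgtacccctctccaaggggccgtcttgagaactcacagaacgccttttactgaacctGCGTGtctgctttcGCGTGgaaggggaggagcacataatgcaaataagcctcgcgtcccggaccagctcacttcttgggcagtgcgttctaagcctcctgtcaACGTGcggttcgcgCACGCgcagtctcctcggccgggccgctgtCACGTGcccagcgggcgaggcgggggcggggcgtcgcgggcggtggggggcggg
Hif3a, chr7:17062378-17062677, minus strand: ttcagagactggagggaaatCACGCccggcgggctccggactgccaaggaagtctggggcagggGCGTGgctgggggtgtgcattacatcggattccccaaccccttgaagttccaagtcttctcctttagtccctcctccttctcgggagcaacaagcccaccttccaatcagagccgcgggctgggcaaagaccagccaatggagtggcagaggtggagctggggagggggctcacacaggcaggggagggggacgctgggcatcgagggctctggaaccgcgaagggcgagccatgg

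The Egln3 window held 1 core, ACGTG at positions -229 to -225 from the start. Egln1 held 2, GCGTG at -126 to -122 and ACGTG at -68 to -64, in a window of 86.0% G and C that only 0.0578% of all windows equalled or exceeded. Egln2 held 6 matches in the window of its upstream start, of which the last 2 are the same palindrome read on both strands, and 1 in the window of its downstream start. Hif3a held 2, Hif1a 3 (again with a palindrome counted on both strands) and Arnt 1, while the Vhl and Hif1an windows held none. Of all 32851 windows of this length 43.8% held at least 1 core, 20.6% at least 2 and 1.66% at least 5. Epas1 has no window in the table.

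**Figure D1:**
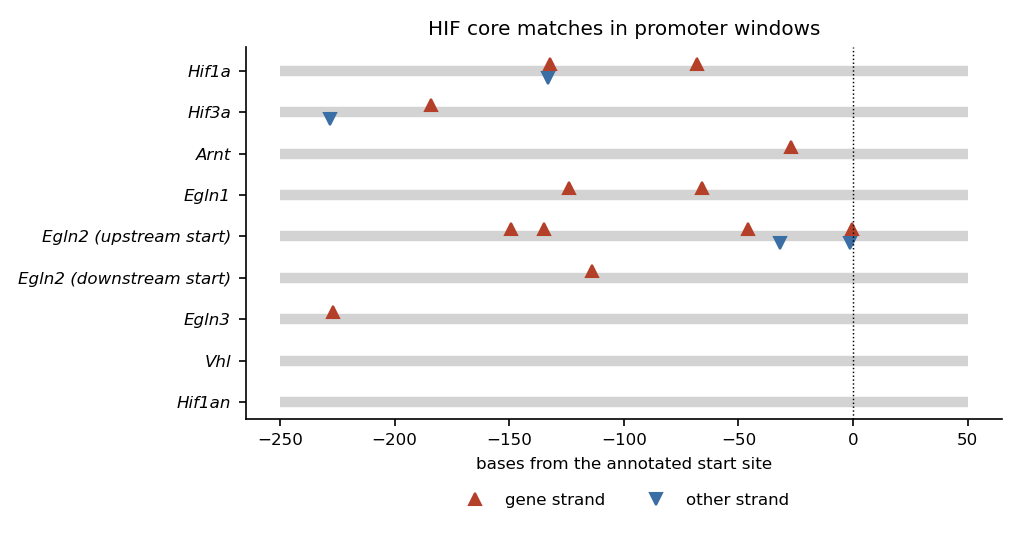
Positions of HIF core matches (triangles, by strand) in the 300-base windows around annotated start sites of 8 of the 9 genes, in bases from the start, with Egln2 drawn for its 2 starts. The upstream start of Egln2 holds 6 matches, Egln1 holds 2 and Egln3 holds 1, while Vhl and Hif1an hold none.

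No gene of the group passed limma's test over all 28767 transcript clusters, where 0 of 9 were called at a Benjamini-Hochberg adjusted p under 0.05, against a background of 0% of clusters. At an unadjusted p under 0.05 there was 1 of 9, Egln3, against 5.93% of clusters. The knockout hearts lay wholly above the wild-type hearts for Egln1, Egln3 and Arnt (background 4.95% of named genes) and wholly below for Egln2 (background 7.18%). These 4 of 9 stand beside 12.1% of all named genes with no overlap in either direction. The separation of Egln2 and of Arnt was narrow, and each lost it under some rescaling of the arrays, as given below. The median difference of the 9 genes was 0.01 (log2), against -0.02 for all named genes, since 5 had higher and 4 lower means.

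**Figure D2:**
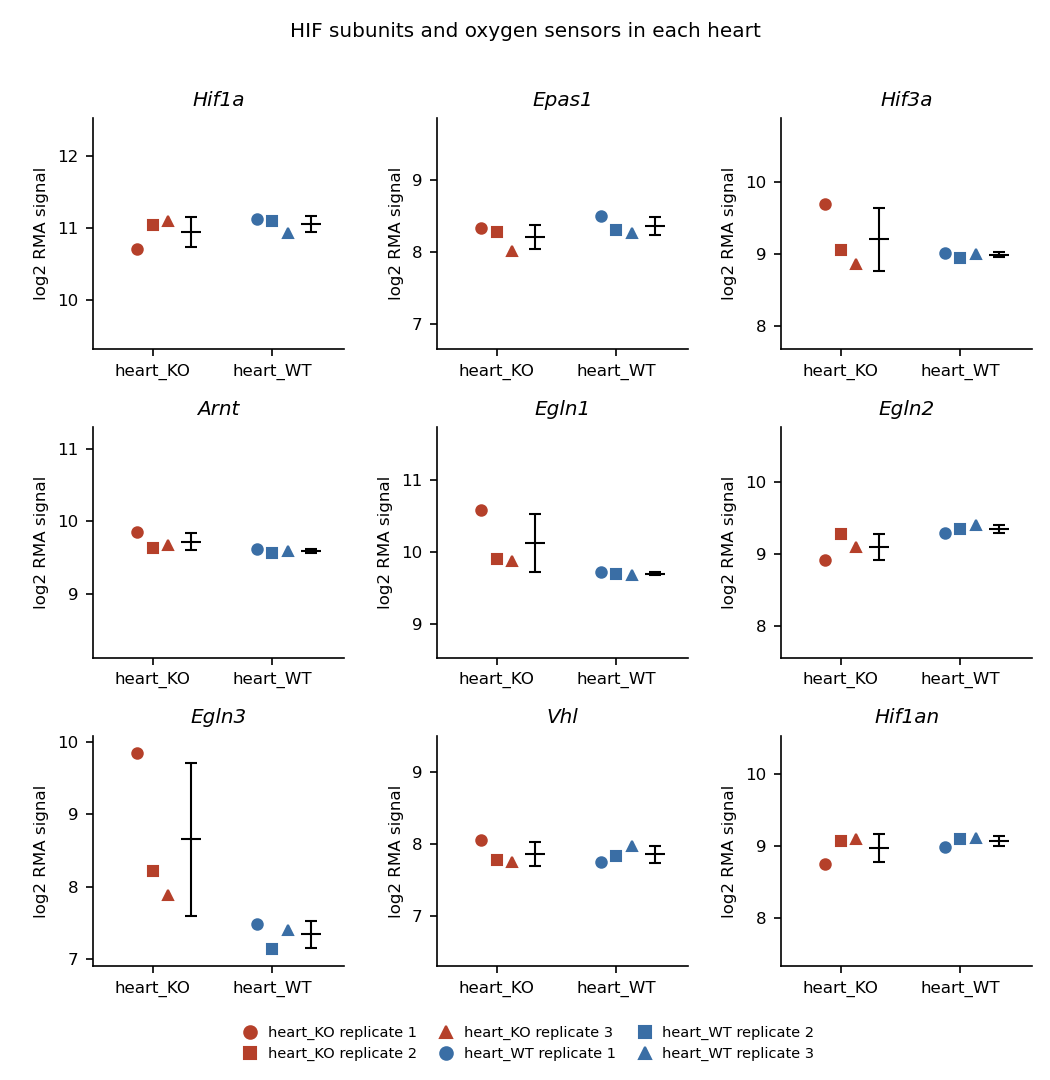
Log2 RMA signal (vertical axis, of the same span in each panel) of the 9 genes in each heart, heart_KO left of heart_WT, with a symbol per replicate and the mean with SD (n = 3) beside them. Egln3 and Egln1 are high in all 3 knockout hearts and highest in replicate 1, whereas Egln2 is low and Vhl overlaps.

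Among the α subunits, Hif1a, the broadly expressed founding member, gave 10.71, 11.03 and 11.09 in heart_KO replicates 1 to 3 and 11.12, 11.10 and 10.92 in heart_WT replicates 1 to 3. Knockout replicate 1 was the lowest of the 6, and the other hearts of both groups intermingled. The means were 10.94 ± 0.21 in heart_KO and 11.05 ± 0.11 in heart_WT (SD, n = 3 each), a difference of -0.11 ± 0.12 (SE; limma adjusted p = 0.880). Its 95% interval ran from -0.39 to 0.18, and the arrays do not exclude a difference within that range. Without knockout replicate 1 the difference was 0.01 ± 0.09.

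Epas1, which encodes HIF2α and is known for expression in vascular endothelium, gave 8.34, 8.28 and 8.02 in heart_KO and 8.50, 8.31 and 8.26 in heart_WT. The groups overlapped, with knockout replicate 3 the lowest heart. This was the only one of the 9 genes for which knockout replicate 1 was at neither end of the 6 hearts. The difference was -0.15 ± 0.12 (log2, SE; limma adjusted p = 0.828), and -0.21 ± 0.12 without replicate 1. Of 12 endothelial marker genes, all measured, 9 had lower means in the knockout, and their summed linear signal was 10568 to 10704 in heart_KO and 11247 to 11969 in heart_WT. The part of this shift in the Epas1 value was not tested, and fewer cells of a type cannot be told apart from less RNA per cell in whole hearts.

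Hif3a, whose splice forms can act as inhibitors of the other α subunits, split the knockout hearts. It gave 9.70, 9.05 and 8.87 in heart_KO and 9.021, 8.951 and 8.999 in heart_WT, so that the knockout group held both the highest and the lowest of the 6 hearts. Its SD was 0.44 in heart_KO and 0.04 in heart_WT. The difference of 0.22 ± 0.20 (log2, SE; limma adjusted p = 0.849) was -0.03 ± 0.09 without replicate 1. An array value for the whole cluster does not tell the inhibitory from the other splice forms.

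Arnt, the β subunit shared by the α subunits and by other factors of its class, gave 9.85, 9.63 and 9.68 in heart_KO and 9.61, 9.57 and 9.59 in heart_WT. All knockout hearts stood above all wild-type hearts, but the gap between the nearest hearts was 0.01 (log2), and the groups overlapped after centring on array medians. The difference was 0.13 ± 0.09 (SE; limma adjusted p = 0.812), a 1.09-fold higher mean, and 0.06 ± 0.08 without replicate 1.

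In the main fit over all 6 hearts the prolyl hydroxylases gave the largest differences of the group, 2 positive and 1 negative. This order did not hold without knockout replicate 1, where Epas1 (-0.21) differed more than Egln1 (0.19) and Egln2 (-0.16), or without knockout replicate 3, where Hif3a (0.39) differed more than Egln2 (-0.25). Hif3a also differed more than Egln2 after cyclic loess (0.25 against -0.22) and, barely, without wild-type replicate 3 (0.2210 against -0.2200). With array weights Epas1 (-0.1199) differed slightly more than Egln2 (-0.1175). Egln3, which encodes PHD3, gave 9.86, 8.22 and 7.88 in heart_KO and 7.48, 7.13 and 7.40 in heart_WT. Every knockout heart lay above every wild-type heart, by at least 0.40 (log2), and the departures from the mean of heart_WT were 2.52, 0.88 and 0.55 in replicates 1 to 3. The means were 8.65 ± 1.06 in heart_KO and 7.34 ± 0.19 in heart_WT (SD, n = 3 each), a 2.49-fold difference or 1.32 ± 0.46 on the log2 scale (SE; limma adjusted p = 0.797). An exact two-sided permutation test gave p = 0.1, which is the lowest value open to 3 hearts against 3. Without replicate 1 the difference was 0.71 ± 0.15, or 1.64-fold (limma adjusted p = 0.690).

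Egln1 encodes PHD2, the hydroxylase that sets HIF1α stability in most normoxic cells. Its signal was 10.59, 9.90 and 9.88 in heart_KO and 9.72, 9.70 and 9.68 in heart_WT. The wild-type hearts were nearly level (SD 0.02), and each knockout heart exceeded them, again with replicate 1 far above the others. The difference was 0.42 ± 0.19 (log2, SE; limma adjusted p = 0.797), a 1.34-fold higher mean, and 0.19 ± 0.08, or 1.14-fold, without replicate 1. Its exact permutation p was 0.1, the smallest possible here.

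Egln2, which encodes PHD1, had the opposite sign, with 8.91, 9.28 and 9.09 in heart_KO and 9.28, 9.35 and 9.40 in heart_WT. The knockout hearts lay below the wild-type hearts, replicate 1 lowest, but replicate 2 missed the lowest wild-type heart by under 0.01 (log2; 0.005). After quantile normalization or cyclic loess the groups overlapped. The difference was -0.25 ± 0.11 (SE; limma adjusted p = 0.797), which is 84.2% of the wild-type level, and -0.16 ± 0.09 without replicate 1.

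Because all 3 hydroxylases were read on the same arrays, their differences were also taken within hearts. The log2 difference Egln3 minus Egln2, taken against its wild-type mean, was 2.95, 0.95 and 0.80 in heart_KO replicates 1 to 3 and 0.21, -0.21 and 0.01 in heart_WT replicates 1 to 3. Relative to Egln2, the Egln3 signal was 2.96-fold higher in the knockout group. Egln3 minus Egln1 differed by 0.90 (log2), with all knockout hearts above all wild-type hearts here too. Epas1 minus Hif1a differed by -0.04, with overlap. Over these 3 comparisons the two-sided exact permutation p was 0.1, 0.1 and 0.9, or 0.15, 0.15 and 0.9 after Benjamini-Hochberg adjustment, and 0.1 is the smallest that this design allows. The first p was fixed in advance, because Egln3 lay wholly above and Egln2 wholly below wild type. It is no further evidence of unequal change. Without knockout replicate 1 the first 2 differences were 0.87 and 0.53.

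**Figure D3:**
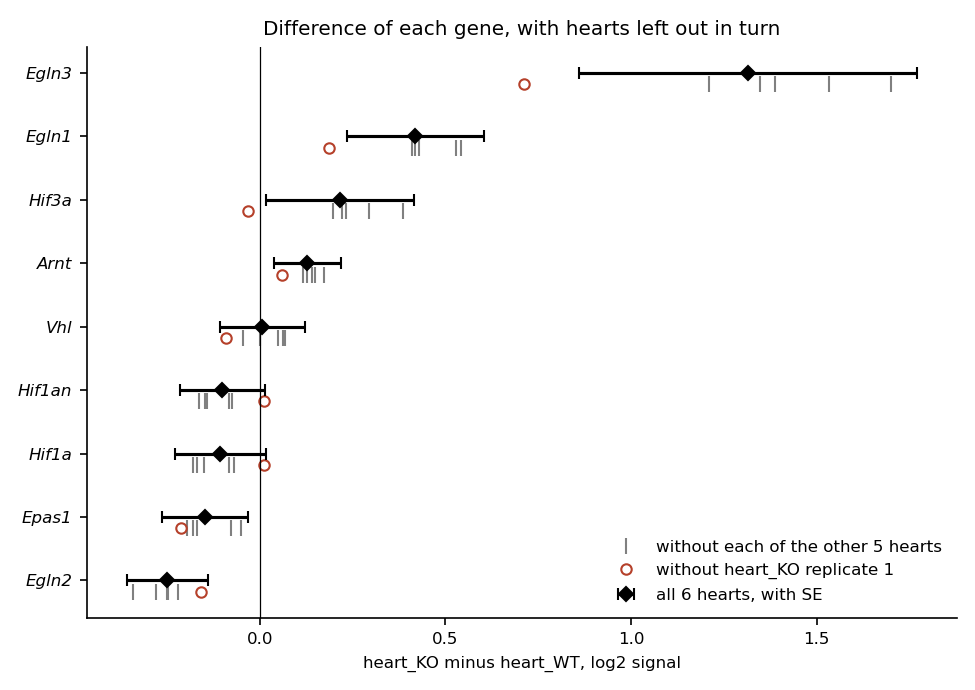
Heart_KO minus heart_WT difference (log2) of each gene with its SE over all 6 hearts (diamonds), without heart_KO replicate 1 (open circles) and without each of the other 5 hearts (ticks). Egln3, Egln1 and Arnt stay above 0 and Egln2 and Epas1 below it whichever heart is left out, while Hif3a, Hif1an, Hif1a and Vhl cross 0 without heart_KO replicate 1. Vhl also crosses 0 without heart_WT replicate 1 or 2.

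Hif1an, which limits transactivation rather than stability, gave 8.75, 9.07 and 9.10 in heart_KO and 8.99, 9.11 and 9.12 in heart_WT. Knockout replicate 1 was lowest and the others overlapped with wild type. The difference was -0.10 ± 0.11 (log2, SE; limma adjusted p = 0.876), with a 95% interval from -0.37 to 0.17, and 0.01 ± 0.08 without replicate 1. Vhl, the substrate receptor of the ligase, gave 8.06, 7.77 and 7.75 in heart_KO and 7.75, 7.84 and 7.97 in heart_WT. The hearts of the groups were mixed, and the difference was 0.01 ± 0.11 (limma adjusted p = 0.991) with a 95% interval from -0.26 to 0.27. It was -0.09 ± 0.10 without replicate 1.

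The other components that work with VHL had lower means in the knockout, all 5 of the 5 measured, with 0 called and a median of -0.11 (log2) against -0.02 for all named genes. Elob, an elongin adaptor, differed by -0.16 ± 0.09 (SE) and the RING subunit Rbx1 by -0.11 ± 0.08, both wholly below wild type (background 7.18% of named genes). The gaps between the nearest hearts were only 0.006 for Elob and 0.004 for Rbx1 (log2). Both genes had 2 clusters, of which the brighter is given. The ubiquitin-like Nedd8, which activates cullins, differed by -0.14 ± 0.11, the scaffold Cul2 by -0.04 ± 0.09 and the elongin Eloc by -0.04 ± 0.12. Without replicate 1 the median was -0.03, with Cul2 (0.01) and Eloc (0.07) higher and the other 3 lower, at -0.10 for Elob, -0.07 for Rbx1 and -0.03 for Nedd8.

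The spread within the knockout group was larger than within the wild type for all 9 genes, as it was for 63.5% of named genes. For 8 of the 9 knockout replicate 1 was the highest or the lowest heart, against 52.2% of named genes. It was highest for Hif3a, Arnt, Egln1, Egln3 and Vhl and lowest for Hif1a, Egln2 and Hif1an. Egln1 and Hif3a had the most unequal spreads, with SDs of 0.40 and 0.44 in heart_KO and 0.02 and 0.04 in heart_WT. Limma assumes 1 spread for both groups, which these 2 genes do not show. Neither do Egln3 (SD 1.06 in heart_KO and 0.19 in heart_WT) and Arnt (0.12 and 0.02). Of the 9 genes 0 passed limma's adjusted threshold without replicate 1, as did 0.00348% of all clusters (1 cluster).

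Erythroid markers were also highest in replicate 1 of the knockout. Of 16 such genes 12 were measured, all with higher means in the knockout, but 5 higher and 7 lower without replicate 1. Their summed linear signal was 35887, 18728 and 21635 in heart_KO replicates 1 to 3 and 22221, 23901 and 16249 in heart_WT replicates 1 to 3. Replicates 2 and 3 of the knockout lay within the wild-type range of this sum. The part of blood RNA in the values of the 9 genes was not tested. Macrophage markers, all 13 measured, had higher means in the knockout for 12 genes and a lower one for Lyz2, and the same 12 to 1 count without replicate 1. Their median departure from wild type was 0.11, 0.22 and 0.20 in heart_KO replicates 1 to 3 and 0.03, -0.01 and -0.09 in heart_WT replicates 1 to 3 (log2), with no overlap. Their summed linear signal, of which Lyz2 is a part, was 1781 to 2018 in heart_KO and 1680 to 1997 in heart_WT. The 9 liver markers summed to 497 to 724 in heart_KO and 418 to 497 in heart_WT. Of these 9 dim genes 6 had higher and 3 lower means in the knockout, with the largest differences in Alb (1.57, log2) and Afp (1.20). The 10 cushion mesenchyme markers summed to 13227 to 20415 in heart_KO and 10558 to 16600 in heart_WT, and the 8 epicardial markers to 3907 to 4673 in heart_KO and 3700 to 3897 in heart_WT. Of the 8, 6 had higher and 2 lower means in the knockout. Krt19, with the highest mean of the 8, gave 10.87 in knockout replicate 1, where Tbx18, Tcf21 and Upk3b were lowest. The mean log2 signal of the 8 overlapped, at 8.792 to 8.930 in heart_KO and 8.744 to 8.802 in heart_WT. The part of these cell types in the values of the sensor genes was not tested.

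Genes known to be activated by HIF, listed without Egln1 and Egln3, were higher in the knockout hearts by their means for 30 of 32 measured members and lower for 2, with 0 called. Of these, 18 lay wholly above wild type and 0 wholly below, which is 56.3% with no overlap against 12.1% of named genes. The list was chosen with earlier results of these data known and is no independent evidence of its direction. Its median difference was 0.56 (log2), against -0.02 for all named genes, and 0.18 without replicate 1, with 28 of 32 still higher. By heart, the mean departure from wild type was 1.22, 0.24 and 0.19 in heart_KO replicates 1 to 3 and 0.00, -0.03 and 0.03 in heart_WT replicates 1 to 3. The ranking of the knockout hearts was that seen for Egln3 and Egln1.

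The 5 target genes with the lowest p were P4ha1, Angptl4, Plod2, Slc2a3 and Kdm3a. The glucose transporter gene Slc2a3 gave 11.77, 9.82 and 9.65 in heart_KO and 9.28, 9.13 and 9.16 in heart_WT, a difference of 1.22 ± 0.50 (log2, SE). The collagen prolyl hydroxylase subunit gene P4ha1 differed by 0.72 ± 0.26, the histone demethylase gene Kdm3a by 0.65 ± 0.27 and the collagen lysyl hydroxylase gene Plod2 by 0.63 ± 0.25, each with no overlap. Angptl4, a secreted inhibitor of lipoprotein lipase, differed by 0.36 ± 0.14 with overlap. Without replicate 1 the difference was 0.55 for Slc2a3, 0.38 for P4ha1, 0.30 for Kdm3a, 0.31 for Plod2 and 0.28 for Angptl4. Epo, the kidney and liver hormone gene that first revealed HIF, was dim and differed by -0.01 ± 0.10, or -0.03 without replicate 1.

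Like the EGLN enzymes, other dioxygenases use oxygen and 2-oxoglutarate, and 3 of the genes just named belong to them. Of 20 such genes 16 had higher and 4 lower means, 8 lay wholly above wild type (background 4.95%) and 0 below (background 7.18%), and 0 were called. P4ha1, P4ha2, Plod2 and Kdm3a, all wholly above, were also counted among the HIF target genes. This list too was chosen with earlier results of these data known. The median was 0.21 (log2), and 0.08 without replicate 1. Beside P4ha1, Plod2 and Kdm3a, the lowest p belonged to Tet1, which oxidises methylcytosine, at 0.36 ± 0.16 (SE) and to the demethylase gene Kdm5b at 0.42 ± 0.19. Without replicate 1 Tet1 stood at 0.18 and Kdm5b at 0.20.

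**Figure D4:**
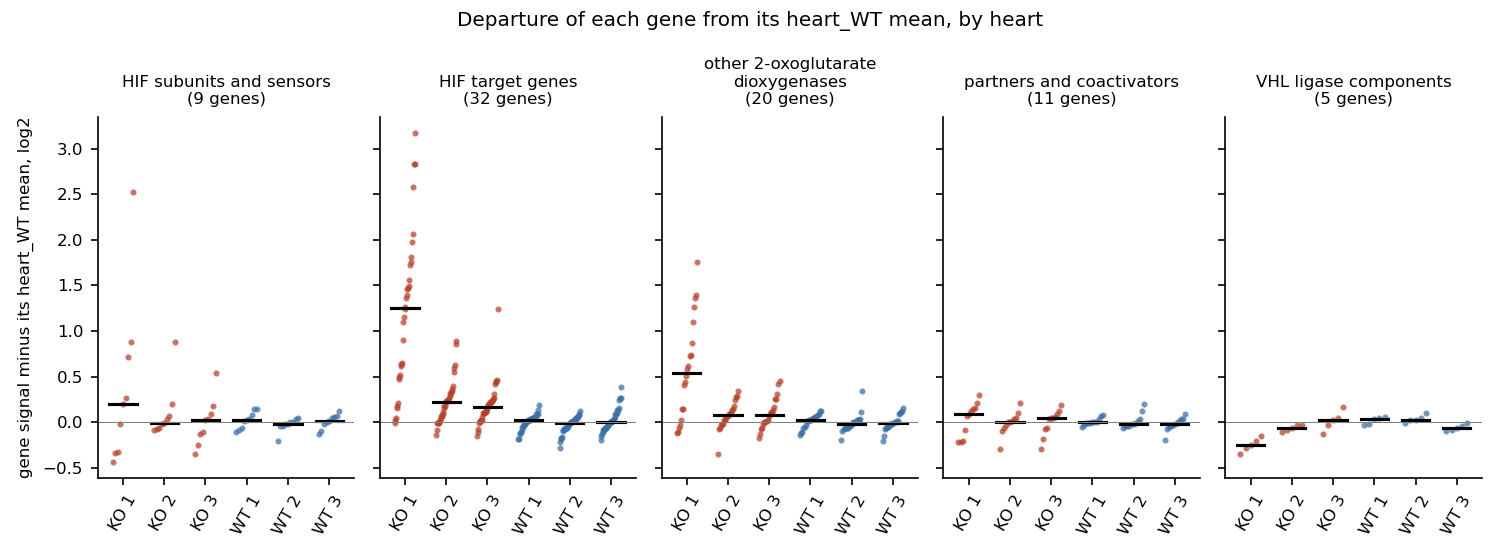
Departure of each gene from its own heart_WT mean (log2) in each heart, for the 9 HIF subunits and sensors and 4 lists of related genes, with KO for heart_KO and WT for heart_WT, a point per gene and a bar at the list's median in that heart. The HIF targets and other dioxygenases stand highest in knockout replicate 1 and less high in replicates 2 and 3, while the VHL ligase components are low in replicate 1.

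Partners and coactivators of HIF showed small differences in both directions, 7 higher and 4 lower of 11 measured, with 0 called and a median of 0.03 (log2), or 0.01 without replicate 1. Of these genes 2 lay wholly above wild type (background 4.95% of named genes) and 2 wholly below (background 7.18%). Arnt2, a paralogue of Arnt, gave 7.69, 7.69 and 7.67 in heart_KO and 7.46, 7.42 and 7.58 in heart_WT, a difference of 0.20 ± 0.08 (SE) that was also 0.20 without replicate 1. The coactivator gene Ep300 differed by 0.13 ± 0.08, wholly above wild type. Members of the CITED family, which bind the same coactivator domain as HIF, differed in sign. Cited1 gave 10.89, 10.79 and 10.90 in heart_KO and 11.03, 11.22 and 11.02 in heart_WT, a difference of -0.23 ± 0.09, and Cited4 differed by -0.16 ± 0.09, both wholly below. Cited2, itself a HIF target needed for heart development, differed by 0.10 ± 0.11 with overlap, and by -0.01 without replicate 1. In contrast to Egln3, the values of Arnt2, Ep300 and Cited1 in knockout replicate 1 lay close to those of replicates 2 and 3.

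Of 12 measured genes that act on HIF stability or localisation 7 had higher and 5 lower means, with 0 called and a median of 0.04 (log2), or 0.02 without replicate 1. Wholly above wild type were 3 of them (background 4.95% of named genes), and 0 lay wholly below (background 7.18%). The lowest p belonged to Wsb1, a ubiquitin ligase receptor for which VHL is a reported substrate. It gave 11.77, 11.35 and 11.51 in heart_KO and 11.18, 11.08 and 11.26 in heart_WT, a difference of 0.37 ± 0.12 (SE; limma adjusted p = 0.797) with no overlap, and 0.26 without replicate 1. The ubiquitin ligase gene Siah1a, whose family targets EGLN proteins, differed by 0.19 ± 0.08 and was wholly above wild type. The deubiquitinase gene Usp33 differed by 0.13 ± 0.08 with no overlap, but the gap between the nearest hearts was only 0.007 (log2). The membrane prolyl hydroxylase gene P4htm differed by -0.13 ± 0.12 and Usp20, which deubiquitinates HIF1α, by -0.18 ± 0.18. Without replicate 1 P4htm stood at -0.25 and Usp20 at -0.02.

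Egln3 had the widest range of the group, 2.73 (log2) over the 6 hearts, and the genes with the most similar pattern were sought among named genes with a range of at least 1. Pearson's r over the 6 hearts was used as the measure of likeness and is a description of these hearts, in which replicate 1 weighs most. The 8 closest were Eno2 (r = 0.995), S100a6 (0.995), Mt2 (0.993), Ccng2 (0.991), Slc2a3 (0.991), Kdm3a (0.988), Kdm7a (0.985) and Bhlhe40 (0.984). Without replicate 1 their r with Egln3 over 5 hearts lay between 0.946 and 0.987. The range minimum and the choice of these 8 used all 6 hearts, replicate 1 among them. The r over 5 hearts is therefore no independent check of likeness. The metallothionein gene Mt2 gave 10.84, 8.67 and 8.23 in heart_KO and 7.42, 7.38 and 7.38 in heart_WT, a difference of 1.85 ± 0.59 (SE; limma adjusted p = 0.797). The enolase isoform gene Eno2 differed by 1.31 ± 0.51 and the cyclin family gene Ccng2 by 0.89 ± 0.37. Without replicate 1 the differences were 1.05 for Mt2, 0.62 for Eno2 and 0.39 for Ccng2.

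The same range minimum, met by 510 named genes, was used for each of the other members, so closest means closest among those. For Egln1 the closest genes were Slc2a3 (r = 0.999) and Ccng2 (0.997), both of which were also among those closest to Egln3. Arnt was closest to Stat3, a signal-activated transcription factor gene (0.991), and to the innate immune adaptor gene Tifa (0.990). Hif3a was closest to Icam1, a leukocyte adhesion receptor gene, and to the nuclear receptor gene Nr4a3 (both 0.998). Egln2 was closest to the clusters annotated Mir145a (0.973) and Mir20a (0.952). For the remaining genes, Hif1a was closest to Ms4a6b (0.967) and Btbd10 (0.953), Hif1an to Snord95 (0.965) and Pcdhb3 (0.941), Epas1 to Lynx1 (0.938) and Pramel27 (0.930), and Vhl to Adgrg1 (0.905) and 1300017J02Rik (0.901). Without knockout replicate 1 the r with Hif1an was 0.624 for Snord95 and 0.478 for Pcdhb3, and the other pairs of this paragraph had an r of 0.824 to 0.995 over 5 hearts. These pairs too were chosen with replicate 1 among the hearts.

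**Figure D5:**
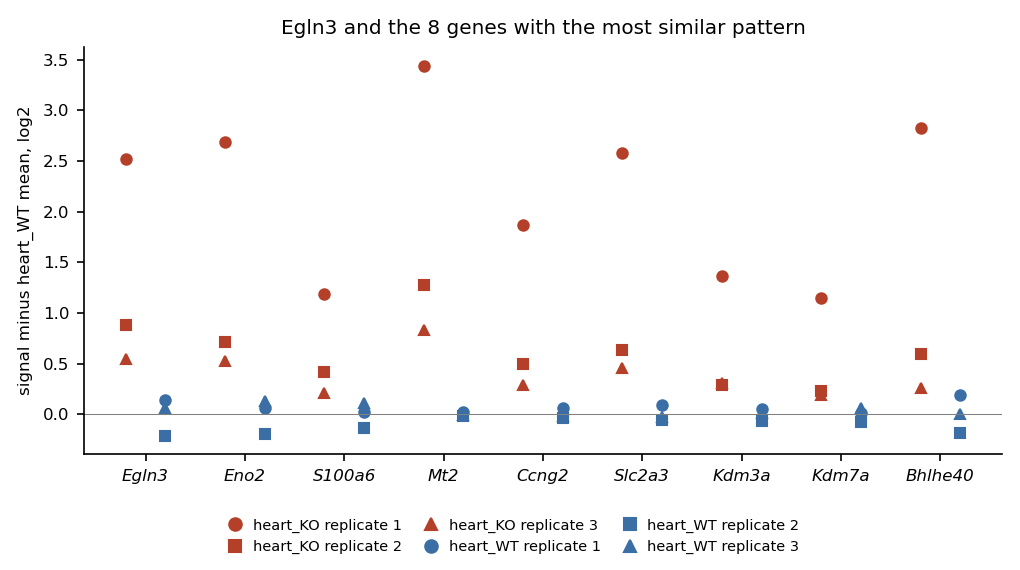
Signal minus the heart_WT mean (log2, vertical axis) of Egln3 and of the 8 genes whose pattern over the 6 hearts was most like it, with a symbol per replicate. Knockout replicate 1 is highest in each of these genes, which were chosen for their likeness to Egln3, and Mt2 lies farthest from wild type.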

How the data were processed

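The deposited table holds log2 signals of 28767 transcript clusters in 6 columns, deposited by the authors after RMA, per the submitters' processing notes. RMA corrects background, gives the arrays 1 distribution and summarises each cluster's probes, and it compresses differences of dim clusters. Its version, the probe annotation and filters are not stated in the labels. Trizol RNA was biotin-labelled, per the labels' protocols. The series text speaks of biological replicates without saying if hearts were pooled, so a p-value reflects only how far these samples vary.

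By the platform annotation 21776 clusters had 1 symbol, 1618 had several and 5373 had none. Of the first, 21686 matched a RefSeq gene table by Entrez identifier, which updated old symbols. For the 993 genes with several clusters the one with the highest mean stands for the gene.

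Groups were compared with limma (version 3.58.1, R 4.3.3; lmFit and eBayes, two-sided, no covariate, no filter, no pseudocount) on the deposited log2 values, with Benjamini-Hochberg adjustment over all clusters and a threshold of 0.05. Single values were tested with exact permutation. The fit was tested on simulated data with equal spread in both groups, which is no check of it for genes whose spreads differ. The genes, the lists and the tests were chosen with earlier results of these data known. Named genes are the 9 members, Itgb1, the 5 genes with the lowest p of each pathway list, and the genes most alike in pattern (8 for Egln3, 2 for each other gene). Epo was named after its value was seen. Alternatives were 3 rescalings, a filter on dim clusters, array weights, 1 cluster per gene, a trended robust variance, the replicate block and each heart left out. Same-numbered hearts did not deviate together (r of -0.04, -0.03 and -0.06 over clusters), so the numbers were not used as pairs. Promoter sequences are from RefSeq (GRCm38.p6). Precision is limited by the number of arrays.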

Additional observations from a re-analysis of the deposited data

How the results depend on the processing

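Over 14 alternative fits each gene was tested again, and none of the 9 was called in any of them. The direction of Egln3, Egln1, Arnt, Egln2 and Epas1 was the same in all 14, with differences of 0.71 to 1.70, 0.19 to 0.54, 0.06 to 0.17, -0.34 to -0.12 and -0.21 to -0.05 (log2). The filter on dim clusters, 1 cluster per gene, the trended robust variance and the replicate block leave a gene's difference unchanged. Their agreement in direction was therefore fixed in advance. The sign turned without heart_KO replicate 1 for Hif1a (0.0118), Hif1an (0.0105), Hif3a (-0.0303) and Vhl (-0.0918). Leaving out each heart in turn gave -0.18 to 0.012 for Hif1a, -0.16 to 0.011 for Hif1an, -0.030 to 0.39 for Hif3a and -0.092 to 0.067 for Vhl. Vhl also turned with array weights (-0.0395) and without heart_WT replicate 1 (-0.0462) or 2 (-0.0002). Leaving out hearts in turn gave 0 to 1 called cluster over the whole table, the 1 without heart_KO replicate 1, where 1618 clusters had an unadjusted p under 0.05. Epas1 minus Hif1a within hearts ran from -0.22 to 0.13, the last without heart_KO replicate 3. The number of the 9 genes with no overlap between the groups was 3 after each rescaling, in place of 4: Egln2 overlapped after quantile normalization and cyclic loess, and Arnt after centring on array medians. With the replicate block, 0 clusters were called and the differences kept their values, since the design is balanced (Egln3 1.32). Over all fits the limma adjusted p of the 9 genes ran from 0.269 (Egln3, with array weights) to 0.9998 (Vhl). The lowest for Egln1 was 0.418, also with array weights. The alternative of averaging several clusters of a gene was not run, as each gene had 1 cluster. The median SE of 0.11 over clusters limits what 3 arrays a group can show.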
